A study of Mus musculus with 6 samples.

Results

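Slow, fatigue-resistant muscle fibres build their sarcomere from their own set of proteins, each encoded by a gene separate from its fast-fibre counterpart. The thick filament carries the slow myosin heavy chain with slow light chains, the thin filament carries slow troponins and a slow tropomyosin, and calcium is returned to the sarcoplasmic reticulum by the pump SERCA2 in place of SERCA1. Mouse gastrocnemius (GAS) is made mostly of fast fibres, so transcripts of the slow set form a small part of its mRNA. The 10 genes described here were taken by symbol from the deposited count table of 24054 genes: Myh7, Myh7b, Myl2, Myl3, Tnnc1, Tnni1, Tnnt1, Tpm3, Atp2a2 and Csrp3. All 10 were in the table, and 9 of them were among the 12660 genes with enough counts to be tested, Myh7b being the exception.

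The study measured mRNA in GAS of mice that lack or overexpress the transcription factor IRF4 in muscle. MI4KO mice carried floxed Irf4 alleles and Myl1-Cre, and MI4OE mice carried the same Cre with an Irf4 transgene at Rosa26 behind a stop cassette that Cre removes. Both groups were male C57BL/6 mice, with 3 libraries each. Their labelled food is a high fat diet, but the phenotyping of these lines in the study was on chow, so the diet of these mice is uncertain. Myl1, whose locus drives the Cre, encodes the fast-fibre essential light chain, and no GAS library without Cre was analysed here, so a difference between the groups cannot be assigned to either genotype. Age was not given in the labels for these mice, and the labels do not say how the muscle pieces were cut. The study describes 3 muscles of each genotype and does not say whether each came from a mouse of its own, so the p-values below measure only the spread between these libraries. Values of single libraries are listed below in the order of replicates 1, 2 and 3 of each genotype. Irf4 itself had 6, 0 and 2 counts in MI4KO and 2864, 10557 and 5911 counts in MI4OE, as the labels require.

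Total counts ranged from 18828605 in MI4OE replicate 1 to 29239585 in MI4KO replicate 3. A limit of 3 counts corresponded to 0.103 to 0.159 CPM, the usual scaling of counts to the library total, in these libraries, for counting error only. Levels of one gene across libraries are given as CPM scaled by TMM (trimmed mean of M values), and levels of different slow and fast genes are set side by side as TPM, which accounts for transcript length. Summed CPM over a list of markers is used only to compare libraries. The muscle markers Acta1, Ckm, Myh4 and Pvalb were abundant in all 6 libraries, summing to 108900 to 223400 CPM. In bulk RNA, fewer slow fibres and less slow mRNA per fibre cannot be told apart.

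The slow genes differed widely between libraries of one genotype. All 10 genes were highest in MI4OE replicate 1 and second highest in MI4OE replicate 3. The third library of the same genotype, MI4OE replicate 2, was the lowest of all 6 in CPM for Myl3, Tnnc1, Tnni1, Tpm3 and Csrp3, although for Tpm3 it was level with MI4KO replicate 1, and it shared the lowest counts with MI4KO replicate 1 for Myl2 (2 each) and Myh7b (1 each). The summed TPM of the 10 genes was 27.1, 168 and 185 in MI4KO and 10600, 29.5 and 1033 in MI4OE. The groups therefore overlapped for every one of the 10 genes, whereas 7.36% of the 12660 tested genes were higher in all MI4OE than in all MI4KO libraries. Among the MI4OE libraries, Irf4 was lowest where the slow genes were highest, at 141, 369 and 261 CPM.

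**Figure D1:**
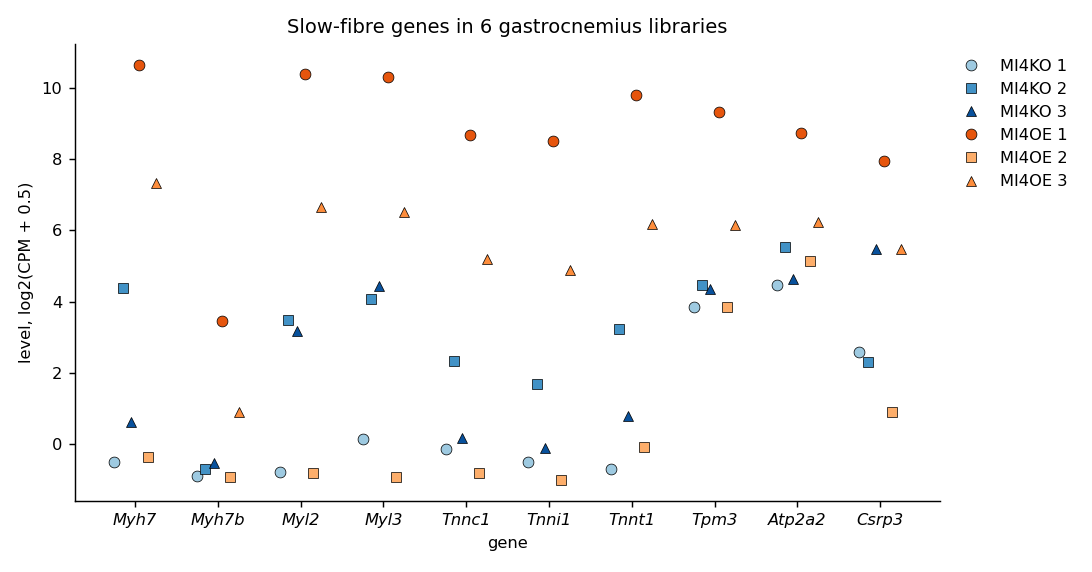
Level of each slow-fibre gene, log2(CPM + 0.5), in each of the 6 libraries (blue, MI4KO; orange, MI4OE; 1 point per library). MI4OE replicate 1 lies highest for all 10 genes, MI4OE replicate 3 second, and MI4OE replicate 2 among or below the MI4KO libraries.

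Start-site sequences of the slow genes are shown first, because these genes moved together across libraries. The windows are from RefSeq (GRCm38.p6) and run from 250 bases before to 50 bases after an annotated start. Such windows were at hand for 9 of the 10 genes, 14 in all. The 4 below are Myh7 on the minus strand at chr14:54994577-54994876, Tnnc1 and Tnni1, which had the tightest relation of any pair, on the plus strand at chr14:31208062-31208361 and chr1:135799171-135799470, and Csrp3, the gene least tied to Myh7, on the minus strand at chr7:48848002-48848301. Capitals mark E boxes (CANNTG, the site of the myogenic bHLH factors) and MCAT elements (CATTCC, or GGAATG on the other strand, the site of TEAD factors); no MCAT match overlapped an E box in these 4 windows.
Myh7: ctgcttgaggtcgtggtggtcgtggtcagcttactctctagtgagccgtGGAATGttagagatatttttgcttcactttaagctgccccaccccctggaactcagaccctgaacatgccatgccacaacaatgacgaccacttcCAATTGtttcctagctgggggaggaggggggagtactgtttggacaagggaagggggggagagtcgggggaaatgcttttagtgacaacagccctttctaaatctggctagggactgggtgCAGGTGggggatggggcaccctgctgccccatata
Tnnc1: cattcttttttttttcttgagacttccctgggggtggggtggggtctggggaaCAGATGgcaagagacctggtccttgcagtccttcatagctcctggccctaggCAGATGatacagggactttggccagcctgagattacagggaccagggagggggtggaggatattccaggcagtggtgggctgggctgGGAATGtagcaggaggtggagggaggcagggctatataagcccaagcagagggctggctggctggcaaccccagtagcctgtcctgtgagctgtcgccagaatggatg
Tnni1: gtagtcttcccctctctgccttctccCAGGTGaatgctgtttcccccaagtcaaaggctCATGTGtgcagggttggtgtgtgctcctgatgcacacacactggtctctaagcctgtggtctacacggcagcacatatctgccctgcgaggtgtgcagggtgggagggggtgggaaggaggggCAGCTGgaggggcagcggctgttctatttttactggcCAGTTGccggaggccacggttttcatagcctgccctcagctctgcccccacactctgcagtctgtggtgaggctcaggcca
Csrp3: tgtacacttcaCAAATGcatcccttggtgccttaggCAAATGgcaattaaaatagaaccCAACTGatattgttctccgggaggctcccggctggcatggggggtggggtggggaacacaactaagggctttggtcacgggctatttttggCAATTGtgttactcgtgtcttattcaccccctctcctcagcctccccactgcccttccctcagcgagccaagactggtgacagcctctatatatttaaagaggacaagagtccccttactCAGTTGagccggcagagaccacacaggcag

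All 14 windows of the slow genes held an E box, a sequence found on either strand in 72.3% of 32851 windows of all genes. An MCAT element was found in 3 of the 14, those of Myh7, Myl3 and Tnnc1, against 14.7% of all windows. A repeat of the IRF core, GAAA followed by GAAA after any 2 bases, was in none of the 14 and in 3.44% of all windows, and the composite of an ETS core and an IRF core, GGAA followed by GAAA after any 2 bases, was in none and in 2.72%. The MEF2 pattern, CTA followed by TAG after any 4 bases, was in none and in 3.69%. These are matches of letters in short windows and say nothing of binding.

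The thick filament of slow fibres is built on Myh7, the slow (beta) myosin heavy chain. Myh7 stood at 0.212, 20.5 and 1.04 CPM in MI4KO and 1603, 0.279 and 162 CPM in MI4OE. The 6 libraries thus spread along a wide range with no gap at the genotype, MI4KO replicate 2 standing above the other MI4KO libraries and above MI4OE replicate 2. The log2 fold change of MI4OE over MI4KO was 6.35 (SE 2.56, edgeR quasi-likelihood test, adjusted p = 0.626). Reads of Myh7 can be shared with its near-identical cardiac neighbour Myh6 by the counting, and the lowest Myh7 levels rested on few counts, 5.18 in MI4KO replicate 1 and 7.98 in MI4OE replicate 2.

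Myl2, the slow regulatory light chain, had 0.0819, 10.7 and 8.57 CPM in MI4KO and 1329, 0.0699 and 101 CPM in MI4OE. Myl3, the slow essential light chain, had 0.614, 16.4 and 21.1 CPM in MI4KO and 1252, 0.035 and 90.3 CPM in MI4OE. For both light chains MI4KO replicates 2 and 3 were alike, unlike Myh7, for which replicate 2 stood far above replicate 3. Log2 fold changes were 6.20 (SE 2.48) for Myl2 and 5.14 (SE 2.32) for Myl3. Myh7b, a heavy chain of low abundance whose transcript yields little protein in slow muscle, had 1, 3 and 6 counts in MI4KO and 212, 1 and 31 counts in MI4OE, and was too low to enter the test. With no filter on low counts its log2 fold change was 4.88 (edgeR quasi-likelihood test, adjusted p = 0.447).

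Myh7 and Myh7b each hold a microRNA (miRNA) within an intron by their annotated positions, miR-208b at chr14:54975700-54975776 and miR-499 at chr2:155622880-155622958 (GRCm38.p6). The mature strands from RefSeq are shown because both belong to the slow genes' own loci, with the seed (bases 2 to 8) in capitals.
mmu-miR-208b-3p: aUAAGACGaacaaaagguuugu
mmu-miR-499-5p: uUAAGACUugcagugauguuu
The seeds UAAGACG and UAAGACU differ in their last base. Both genes have a row in the deposited table and were listed at 0 in all 6 libraries, which were made from enriched mRNA and do not measure mature miRNAs.

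The slow troponins formed the tightest group. Tnni1, the inhibitory subunit, had 0.205, 2.73 and 0.437 CPM in MI4KO and 364, 0 and 28.9 CPM in MI4OE. The 0 counts in MI4OE replicate 2 allow a level of up to 0.105 CPM. Tnnc1, the calcium-binding subunit shared by slow fibres and heart, had 0.409, 4.60 and 0.638 CPM in MI4KO and 406, 0.0699 and 35.9 CPM in MI4OE. Tnnt1, the tropomyosin-binding subunit, had 0.123, 8.88 and 1.24 CPM in MI4KO and 886, 0.454 and 72.2 CPM in MI4OE. All 3 subunits put the 4 upper libraries in the order MI4OE replicate 1, MI4OE replicate 3, MI4KO replicate 2 and MI4KO replicate 3. Their log2 fold changes were 6.87 (SE 2.29) for Tnni1, 6.30 (SE 2.19) for Tnnc1 and 6.55 (SE 2.35) for Tnnt1.

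Tpm3, the slow tropomyosin, is also used outside muscle in shorter forms, and Atp2a2 (SERCA2) is used in most cells in its form SERCA2b. Neither gene came near 0 in any library. Tpm3 had 14.0, 21.6 and 19.95 CPM in MI4KO and 643, 13.9 and 71.2 CPM in MI4OE. Atp2a2 had 21.8, 46.2 and 24.5 CPM in MI4KO and 426, 34.5 and 75.0 CPM in MI4OE. The highest library exceeded the lowest 46.4-fold for Tpm3 and 19.5-fold for Atp2a2, whereas for Myh7 it did so 7558-fold. Log2 fold changes were 3.71 (SE 1.21) for Tpm3 and 2.53 (SE 0.88) for Atp2a2.

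Csrp3, the muscle LIM protein of the Z-disc, departed from the others. It had 5.53, 4.48 and 43.8 CPM in MI4KO and 245, 1.36 and 44.3 CPM in MI4OE. MI4KO replicate 3 was level with MI4OE replicate 3, and MI4KO replicate 2, in which Myh7 was highest of the MI4KO libraries, was the lowest of them for Csrp3. Its log2 fold change was 2.43 (SE 1.52).

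In the comparison of genotypes, 7 of the 9 tested genes passed the criterion the study used for RNA-seq (1.5-fold and unadjusted p under 0.05), all higher in MI4OE, the exceptions being Myl3 and Csrp3. At this criterion 4.36% of all tested genes were called higher in MI4OE and 2.28% lower. None of the 9 had an adjusted p under 0.05 in the edgeR quasi-likelihood test, where adjusted p ran from 0.546 for Tpm3 and Tnni1 to 0.784 for Csrp3, and 7 had an unadjusted p under 0.05. DESeq2 and the edgeR exact test also gave 0 of 9 at an adjusted p under 0.05. Over all genes, 0.0237% passed that limit. The median log2 fold change of the 9 genes was 6.20, beside 0.00 over all tested genes.

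Single libraries decided these calls. Without MI4OE replicate 1, 0 of 9 genes passed the 1.5-fold criterion and their median log2 fold change was 2.96. Without MI4OE replicate 2, all 9 genes passed it. Without MI4KO replicate 1 none passed, and without MI4KO replicate 3 only Tpm3 and Csrp3 did. Calls over all tested genes moved too, from 552 of 12660 higher in MI4OE with all 6 libraries. They numbered 305 of 12930 without MI4OE replicate 1 and 892 of 12845 without MI4OE replicate 2. There were 298 of 12875 without MI4KO replicate 1 and 682 of 12761 without MI4KO replicate 3. Myh7b also entered and passed in the fits without MI4OE replicate 2 or MI4KO replicate 3, but it reached the filter only through its MI4OE counts and is not counted here. Myh7 ran from 3.49 without MI4OE replicate 1 to 9.82 without MI4KO replicate 2, and Csrp3 from 0.34 without MI4OE replicate 1 to 4.25 without MI4KO replicate 3. The direction, higher in MI4OE, stayed in every one of these fits.

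**Figure D2:**
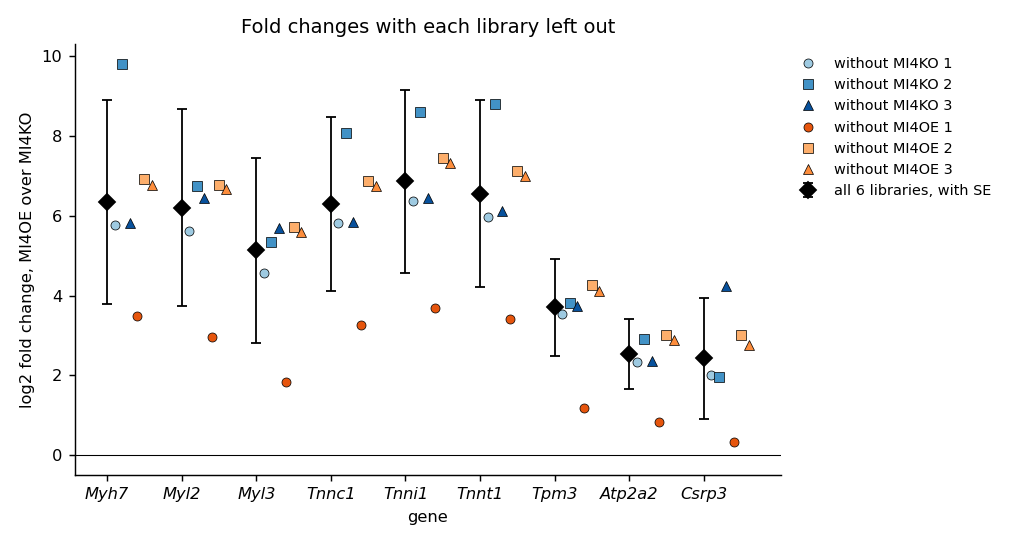
Log2 fold change of MI4OE over MI4KO for the 9 tested genes, with all 6 libraries (black diamonds, bars 1 SE) and with each library left out in turn (coloured points). Without MI4OE replicate 1 every gene has its smallest value, down to 0.34 for Csrp3, and all values lie above 0.

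How tightly the genes moved together was measured on log2(CPM + 0.5) over the 6 libraries. Over the 45 pairs of genes Pearson's r ran from 0.722 (Atp2a2 with Csrp3) to 0.999 (Tnnc1 with Tnni1), with a median of 0.939. The first principal component took 95.2% of the variance about each gene's mean and 95.1% of that about the group means. Within MI4KO the genes did not all follow one order, as Myh7 was highest in replicate 2 and Csrp3 and Myl3 in replicate 3.

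Against Myh7, 8 of 9 relations had an adjusted p under 0.05 by the exact two-sided permutation test over 720 pairings, adjusted over the 9 relations. One of the 8 was Myh7b, which had only 1 to 6 counts in 4 of the 6 libraries. The closest was Tnnt1, with Pearson's r = 0.995 (exact permutation p = 0.00139, the smallest the pairings can give, and 0.005 after adjustment), while Spearman's rho was 1 (0.00278 by the same exact test, and 0.025 after adjustment). Tnnc1 had r = 0.990 and Tnni1 r = 0.984, each with an exact permutation p of 0.00278 (adjusted 0.005), and both had rho = 0.943 (exact permutation p = 0.0167, adjusted 0.025). Csrp3 had r = 0.758 (exact permutation p = 0.0819, and 0.0819 after adjustment), its rho was 0.714 (0.136 by the exact test, and 0.136 after adjustment), and it was the one relation that did not pass.

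For Myl2, Tpm3, Atp2a2 and Myl3, r was 0.961, 0.927, 0.929 and 0.926, with exact permutation p of 0.00278, 0.00278, 0.00417 and 0.00556 (adjusted 0.005, 0.005, 0.00625 and 0.00714). Their rho was 0.943 for the first 3 genes (exact permutation p = 0.0167, adjusted 0.025) and 0.886 for Myl3 (exact permutation p = 0.0333, adjusted 0.0375). Myh7b had r = 0.906 (exact permutation p = 0.0111, and 0.0125 after adjustment), while its rho and its p for rho equalled those of Myl3. With 1 to 6 counts in all libraries except MI4OE replicates 1 and 3, its relation rests on those 2 libraries.

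The libraries farthest from the median of Myh7 were MI4OE replicates 1 and 3. In the 4 libraries left without them, r with Myh7 was 0.986 for Tnnt1, 0.979 for Tnni1 and 0.974 for Tnnc1. It was 0.828 for Tpm3, 0.781 for Atp2a2, 0.774 for Myl2 and 0.689 for Myl3. The relation of Csrp3 (r = 0.02) rested on the libraries left out. Myh7b had 1 to 6 counts in the 4 libraries, too few for its r to be read. With 4 libraries the exact permutation p cannot go below 0.0417 before adjustment, so these values are descriptions. For deviations from the group means, r ran from 0.749 to 0.994.

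The proportions between the genes, taken per length as TPM over the TPM of Myh7, separated MI4KO replicate 3 from the other libraries with enough counts. In MI4KO replicate 2, MI4OE replicate 1 and MI4OE replicate 3, whose Myh7 TPM was 6.23, 394.9 and 45.4, the ratios kept close. Tnnc1 over Myh7 was 2.29, 2.58 and 2.26 in these libraries, Tnnt1 was 2.85, 3.63 and 2.93, and Myl3 was 6.10, 5.97 and 4.26. Across these libraries the ratio varied from 1.14-fold for Tnnc1 to 1.79-fold for Csrp3, with Tpm3 (2.63-fold) and Atp2a2 (8.64-fold) as the exceptions.

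In MI4KO replicate 3, at a Myh7 TPM of 0.27 and 30.9 counts, the ratios to Myh7 were higher. They exceeded those of MI4KO replicate 2 by 2.77-fold for Tnnc1 and Tnnt1, 3.16-fold for Tnni1, 10.3-fold for Atp2a2, 15.9-fold for Myl2, 18.3-fold for Tpm3, 25.7-fold for Myl3 and 195-fold for Csrp3. Myh7b, with 6 counts in the one and 3 in the other library, was too low for its ratio to be read, and in MI4KO replicate 3 Tnni1 and Tnnc1 rested on 13 and 19 counts, so that their smaller excess is uncertain. The excess of Tpm3 and Atp2a2 was not particular to this library. Their ratios of 53.6 and 32.7 here were exceeded in MI4KO replicate 1 (171 and 131) and MI4OE replicate 2 (139 and 174), which had the fewest Myh7 counts. Tpm3 itself was at 21.6 CPM in MI4KO replicate 2 and 19.95 CPM in MI4KO replicate 3. MI4KO replicate 3 was also the MI4KO library with the most Myh2, the fast oxidative (type IIa) heavy chain, and with the most adipocyte marker RNA. Myh2 stood at 3.43, 90.1 and 1022 CPM in MI4KO and the 6 adipocyte markers (Adipoq, Plin1, Cfd, Lep, Cidec and Retn) summed to 56.2, 134 and 568 CPM. Their part in the ratios was not tested.

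**Figure D3:**
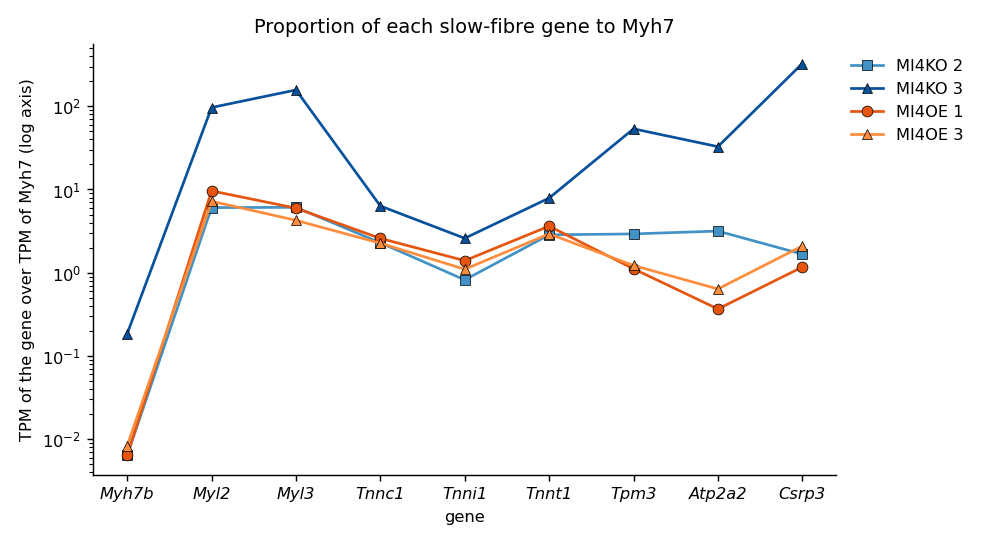
TPM of each slow-fibre gene over the TPM of Myh7 in the same library, on a log axis, for the 4 libraries with over 30 Myh7 counts. The 3 lower lines run together for most genes, from 2.26 to 2.58 for Tnnc1, and MI4KO replicate 3 lies above them, most of all for Csrp3. Myh7b rests on 3 and 6 counts in the MI4KO libraries.

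The fast counterparts showed how small the slow share was. By TPM, Myh7 made up 0.000204, 0.0212 and 0.00122% of the adult heavy chains (Myh7, Myh2, Myh1 and Myh4) in MI4KO and 2.71, 0.000276 and 0.166% in MI4OE. Myh4, the heavy chain of the fastest (IIb) fibres, supplied 94.96 to 99.5% in MI4KO and 67.5, 98.7 and 91.8% in MI4OE. Myh2 and Myh1, the IIa and IIx heavy chains, supplied 12.5 and 17.3% in MI4OE replicate 1 and 1.85 and 6.16% in MI4OE replicate 3. The libraries with the most Myh7 were thus also those with the most Myh2 and Myh1, except that MI4KO replicate 3 held more of both, and MI4OE replicate 2 more Myh1, than MI4KO replicate 2.

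**Figure D4:**
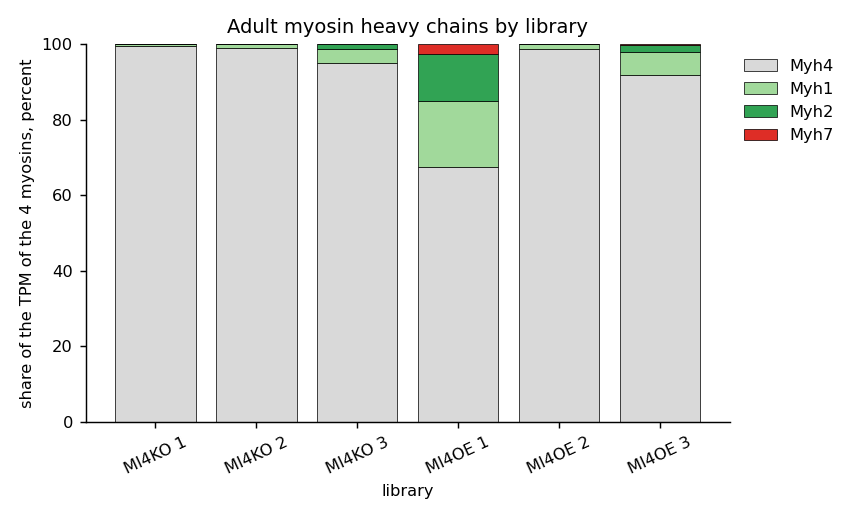
Share of each adult myosin heavy chain in the summed TPM of the 4 genes, in percent, for each library. Myh4 takes over 90% in all libraries except MI4OE replicate 1, where it takes 67.5% and Myh7 2.71%.

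In MI4OE replicate 1 the slow share was largest for the light chains. There Myl2 was 14.2% of Myl2 plus Mylpf and Myl3 was 12.5% of Myl3 plus Myl1, while Tnnt1, Tnnc1 and Tnni1 were 3.15, 2.97 and 1.67% of their pairs with Tnnt3, Tnnc2 and Tnni2. Atp2a2 was 1.49% of Atp2a2 plus Atp2a1, and Tpm3 was 1.28% of Tpm3 plus Tpm1 and Tpm2. The shares in MI4OE replicate 3 ran from 0.119% for Tpm3 to 1.28% for Myl2, and the highest of all 8 pairs in any MI4KO library was 0.170% for Myl3. All 8 group means were higher in MI4OE, but exact two-sided permutation p was 0.2 for Atp2a2, 0.3 for Myh7, Myl2, Tnnt1 and Tpm3 and 0.4 for Myl3, Tnni1 and Tnnc1, where 3 against 3 libraries cannot go below 0.1. The difference in the Myl2 share, 5.08 percentage points, was 0.563 without MI4OE replicate 1 and 7.66 without MI4OE replicate 2.

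The estimated transcripts of Tpm3 separated the libraries more sharply than the gene did. NM_022314 codes for the long form of muscle (285 codons in the GENCODE model) and the other 3 listed transcripts code for shorter forms (248 codons). The long form had 0, 285 and 83.5 counts in MI4KO and 7236, 0 and 920 counts in MI4OE. It made up 0, 53.0 and 14.3% of Tpm3 TPM in MI4KO and 56.0, 0 and 57.7% in MI4OE. The Tpm3 mRNA of MI4KO replicate 1 and MI4OE replicate 2, 8.57 and 11.1 TPM, was assigned wholly to the short forms. The long form was thus found in the libraries with the most of the other slow genes, while the difference in mean share between genotypes was not larger than the spread between libraries (difference 15.4 percentage points, exact permutation p = 0.6). That difference was 4.22 without MI4KO replicate 1, 5.55 without MI4OE replicate 3, 6.39 without MI4OE replicate 1, 30.7 without MI4KO replicate 2 and 34.4 without MI4OE replicate 2.

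For Atp2a2, the transcript NM_009722 (998 codons, the length of the muscle pump SERCA2a) took 79.8, 80.7 and 72.8% of the TPM in MI4KO and 92.6, 71.1 and 88.5% in MI4OE. NM_001110140 (1044 codons, the length of SERCA2b) stood at 0.84, 3.81 and 1.89 TPM in MI4KO and at 0, 3.84 and 1.06 TPM in MI4OE. NR_027838, whose GENCODE model also has 1044 codons, stood at 0.49, 0 and 0.51 TPM in MI4KO and at 10.8, 0.17 and 2.26 TPM in MI4OE. The NM_009722 share was highest in the same 2 MI4OE libraries as the other slow genes, and the group difference was 6.32 percentage points (exact permutation p = 0.5), or 2.08, 12.8 and 4.10 without MI4OE replicate 1, 2 or 3 and 3.86 without MI4KO replicate 3. Single reads of 50 bases were shared between overlapping transcripts by the authors' software, so these shares are estimates.

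**Figure D5:**
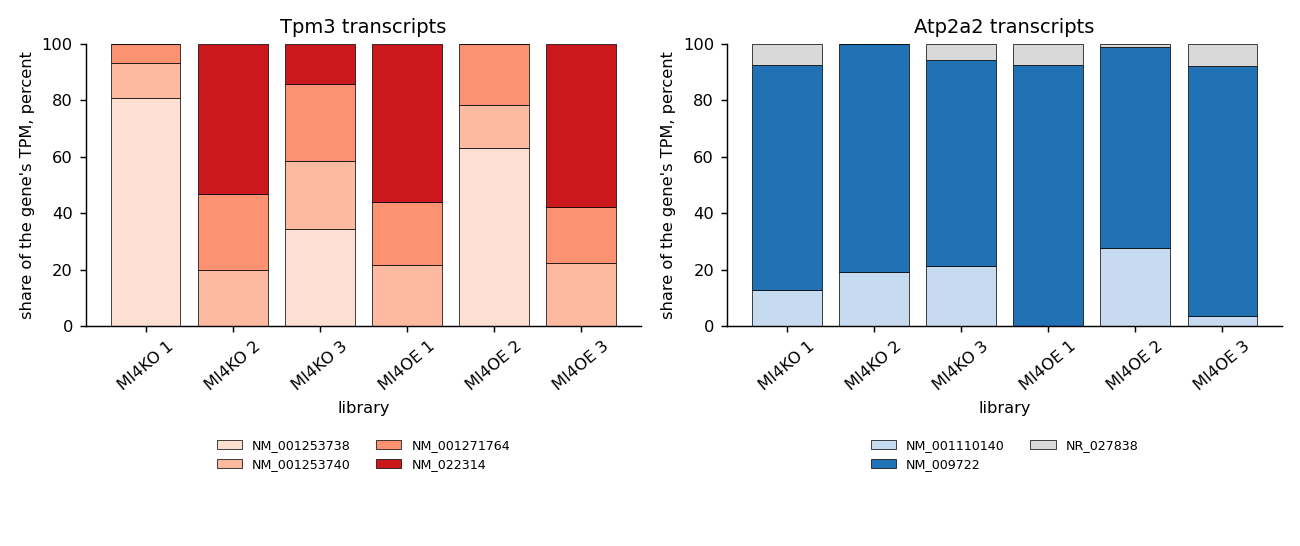
Share of each listed transcript in the TPM of Tpm3 (left) and Atp2a2 (right), in percent, for each library. The long Tpm3 transcript NM_022314 (dark red) is at 0 in MI4KO replicate 1 and MI4OE replicate 2 and between 53.0 and 57.7% in the 3 libraries with the most Myh7.

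A list of 21 other genes of slow or oxidative fibres followed the library order of the slow set only in part. Ankrd2, Casq2, Fabp3, Myoz2, Bdh1, Ldhb and Mb were highest in MI4OE replicate 1 and second highest in MI4OE replicate 3. Sln, Myom3 and Car3 did not have this order, and the genes of the list not named here went both ways. In all, 19 of the 21 genes were higher in MI4OE, with a median of 1.82 on the log2 scale. At the 1.5-fold criterion 4 were called higher: Ankrd2 (a stretch-responsive ankyrin repeat protein, log2 fold change 3.74), Casq2 (the slow and cardiac calsequestrin, 2.45), Fabp3 (a fatty acid carrier, 2.18) and Sln (sarcolipin, which inhibits SERCA, 1.68). Car3, the carbonic anhydrase abundant in slow fibres and in fat, was called lower, with a log2 fold change of -1.20. Over all tested genes 4.36% were called higher and 2.28% lower. Of the others, Myoz2 (calsarcin-1 of the slow Z-disc) had 3.42, Bdh1 (ketone body use) 3.13, Ldhb (heart-type lactate dehydrogenase) 2.89, Mb (myoglobin) 2.095 and Myom3 (an M-band protein) 1.998. None of the 21 had an adjusted p under 0.05 in the edgeR quasi-likelihood test, and 5 had an unadjusted p under 0.05. Of all 12660 tested genes, 959 had an unadjusted p under 0.05 in that test. The number called higher was 0 without MI4OE replicate 1, without MI4KO replicate 1 or without MI4KO replicate 2, 7 without MI4OE replicate 3, 13 without MI4KO replicate 3 and 16 without MI4OE replicate 2. Over all tested genes that number was 552 with all 6 libraries and ran from 298 to 892 with a library left out.

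Genes of this list could differ from Myh7 in the order of the MI4KO libraries. Myoz2 stood at 2.29, 6.85 and 35.97 CPM in MI4KO and 420, 2.38 and 62.6 CPM in MI4OE. Ankrd2 stood at 6.14, 5.35 and 32.0 CPM in MI4KO and 525, 2.90 and 53.5 CPM in MI4OE. In both, as in Csrp3, MI4KO replicate 3 was the highest MI4KO library, whereas in Myh7 and the 3 troponins it was replicate 2.

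Of 18 fast-fibre counterparts, 4 were higher and 14 lower in MI4OE, the median of their log2 fold changes being -0.30, and none was called at the 1.5-fold criterion in either direction (0 at an unadjusted p under 0.05 in the edgeR quasi-likelihood test). Since 4.36% of all tested genes were called higher and 2.28% lower, 0 calls among 18 genes is near the share over all genes. Myh2 (3.05) and Myh1 (1.93) had the largest log2 fold changes, and Myh4 had -0.33. The pair members Mylpf, Myl1, Tnni2, Tnnt3, Tnnc2 and Atp2a1 had -0.35, -0.42, -0.20, -0.29, -0.27 and -0.32, while Tpm1 had -0.20 and Tpm2, which slow and IIa fibres also use, had 0.45. Pvalb, Casq1, Myoz1, Actn3 and Myoz3 had -0.51, -0.44, -0.41, -0.34 and -0.32. In MI4OE replicate 1 Myh4 stood at 39860 CPM, beside 79760 to 110600 CPM in the other 5 libraries.

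Of 30 regulators of the slow programme, 29 were tested and 1 was called at the 1.5-fold criterion, Nfatc4, a calcineurin-dependent NFAT factor of low level, at 1.16, 1.10 and 1.37 CPM in MI4KO and 3.36, 1.46 and 2.01 CPM in MI4OE (log2 fold change 0.89, edgeR quasi-likelihood test, adjusted p = 0.64). One call in this list is near the share over all genes, 4.36% higher and 2.28% lower. The median over the list was -0.10. The largest other values were 2.20 for Esrrb and 0.86 for Esrrg, both estrogen-related receptors, 1.54 for Vgll2, a TEAD cofactor of muscle, -0.71 for Tead4, and 0.50 for Ppargc1b. Vgll2 stood at 20.6, 19.8 and 41.4 CPM in MI4KO and 163, 18.3 and 57.4 CPM in MI4OE, and so was highest in the same library as the slow genes.

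Among 8194 tested genes outside the set with a mean of at least 5 CPM, the 10 whose levels over the 6 libraries were most like the mean standardised level of the slow genes had Pearson's r of 0.973 to 0.991. They were Ednrb, Ccdc58, Rtn4ip1, Etfdh, Golim4, Coq6, Homer2, Rmdn1, Ablim1 and Tgfbi, none of which is on the lists above. Etfdh, the dehydrogenase that passes electrons from fat oxidation to ubiquinone, stood at 76.3, 94.9 and 96.3 CPM in MI4KO and 173, 84.7 and 115 CPM in MI4OE. Homer2, a scaffold protein, ranged more widely, at 4.67, 6.97 and 8.13 CPM in MI4KO and 52.3, 5.87 and 13.6 CPM in MI4OE. These correlations are descriptions over 6 libraries, chosen as the highest of many.

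Markers of several other cell types were also highest in MI4OE replicate 1, the library of the highest slow-gene levels and the lowest total count, and fibroblast markers were nearly level in MI4OE replicates 1 and 3. For the counts of called markers that follow, the shares over all genes were 4.36% higher and 2.28% lower, and no marker of these lists had an adjusted p under 0.05 in the edgeR quasi-likelihood test. The 6 endothelial markers summed to 294.8 CPM there, to 169 and 183 CPM in MI4OE replicates 2 and 3, and to 86.8 to 149 CPM in MI4KO, and 3 of 6 were called higher. The 6 fibroblast markers summed to 204 to 309 CPM in MI4KO and 476, 358.5 and 484 CPM in MI4OE, and 6 of 6 were called higher. The sums were 248.8 CPM in MI4OE replicate 1 and 120 to 207 CPM elsewhere for 5 smooth muscle markers (3 called higher), 93.9 and 41.9 to 62.0 CPM for 10 genes of developing or denervated fibres (3 called higher), and 734 and 184 to 302 CPM for 4 erythrocyte genes (1 called higher, and Hbb-bs at 0 in all libraries).

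All 6 adipocyte markers were called lower in MI4OE, their sum being 6.25 to 34.8 CPM against 56.2 to 568 CPM in MI4KO. The 4 Schwann cell markers summed highest in MI4OE replicate 2 (169 CPM) and lay between 22.0 and 89.6 CPM elsewhere. The 3 macrophage markers found in the table summed to 7.69 to 16.8 CPM, and 4 tendon markers to 122 CPM in MI4OE replicate 1 and 26.4 to 81.5 CPM elsewhere, with Fmod called higher. The 10 cardiac markers summed to 108 CPM in MI4OE replicate 1 and to 46.5 to 70.8 CPM elsewhere, with Actc1, which skeletal muscle also expresses, at 82.5 CPM in MI4OE replicate 1, and none of the 3 tested was called. Tnnt2 did not exceed 6.85, Myl4 10.8 and Ryr2 0.418 CPM, Nppa and Tnni3 did not exceed 0.246 CPM, and Myl7, Nppb and Mybpc3 were at 0 in every library. Myh6, which can share reads with Myh7, reached 1.95 TPM in MI4OE replicate 1, where Myh7 stood at 394.9 TPM. The part of all these cell types in the slow-gene levels was not tested.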

How the data were processed

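RNA from flash-frozen GAS was made into Kapa Stranded mRNA libraries and sequenced as single reads of 50 bases. Per the labels, and in the methods of the study, the authors demultiplexed with bcl2fastq 2.17, aligned to UCSC transcripts with Bowtie2 2.1.0 and deposited expected counts and TPM estimated with RSEM 1.2.15, per gene and per transcript. The genome build was not given in the sources used here. RSEM splits reads among similar transcripts. The authors' own comparison of the genotypes (fold changes and p-values) was also deposited and was not used.

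Expected counts were rounded, genes were filtered with filterByExpr (minimum count 10, minimum total 15) and scaled by TMM, and 12660 of 24054 genes were tested with the quasi-likelihood test of edgeR 4.0.16 (R 4.3.3), with Benjamini-Hochberg adjustment over all tested genes and no covariate. Levels are CPM scaled by the TMM factors (0.864 to 1.08). Shares were computed from TPM and compared with exact permutation tests over the 20 assignments of libraries, and relations over 720 pairings (scipy 1.17.1). The edgeR exact test, DESeq2 1.42.0, limma 3.58.1 on log2(TPM + 1) and log2(TPM + 0.1), other filters and scalings, and the omission of each library were the alternatives. The tests were tested on simulated data. Replicates were numbered in accession order. The slow-fibre genes and the lists were chosen with earlier results of these data known. Of the lists of other slow, fast and regulatory genes, the text names the genes of fast and slow pairs, those called at the 1.5-fold criterion, Myh2 and up to 5 others with the largest absolute log2 fold change. Start-site windows and miRNAs are from RefSeq (GRCm38.p6), and codon numbers are from GENCODE M21.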

Additional observations from a re-analysis of the deposited data

How the results depend on the processing

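No paired analysis was possible because the labels give no replicate number shared between the groups. All 135 log2 fold changes of the 9 tested genes under 15 alternatives were above 0, the lowest being 0.34, and no gene reached an adjusted p under 0.05 (0.0955 to 1). The number of slow-fibre genes called at the 1.5-fold criterion was 1 with limma on log2(TPM + 1) and 1 with limma on log2(TPM + 0.1), where the gene called was Atp2a2, was 7 to 9 under the other filters, scalings and count tests, and ran from 0 to 10 with a library left out. Under the 2 other filters and in 4 of the fits without a library, 10 genes were tested in place of 9. The added gene was Myh7b, which entered through its MI4OE counts wherever counts were filtered. It is one of the 9 called with no filter on low counts and of the 8 called at a mean CPM of at least 1. It is also one of the 3 called without MI4KO replicate 3 and of the 10 called without MI4OE replicate 2. Those counts are therefore raised by a gene that the main test left out. Over all genes, adjusted p under 0.05 was reached by 111 genes with DESeq2 and 112 with the edgeR exact test in place of 3, and by 1 to 4 with a library left out. Genes higher in MI4OE at the 1.5-fold criterion numbered 313 with limma on log2(TPM + 1) in place of 552, and 298 to 892 with a library left out. The median log2 fold change of the slow-fibre genes was 3.41 and 3.42 with limma on the TPM scales (the cause was not tested), and 2.96 to 6.67 with a library left out. Total counts without TMM moved the median of all genes by 0.09. Relations to Myh7 with an adjusted p under 0.05 numbered 8, and 0 without the 2 libraries farthest from the Myh7 median (4 libraries, where p cannot go below 0.0417 before adjustment) and 0 for deviations from group means, where the 36 pairings within groups cannot go below 0.0278 before adjustment. With a library left out, 3 to 5 of 7 transcript shares within Atp2a2 and Tpm3 were higher in MI4OE. The differences in share that changed sign ranged from -1.13 to 3.21 percentage points for NR_027838, from -38.4 to 3.80 for NM_001253738, from -2.31 to 3.52 for NM_001253740 and from -5.71 to 4.46 for NM_001271764. The number of other slow-fibre genes called without each library was computed after the data were seen. The lowest levels of Myh7, the light chains and the troponins rested on 0 to 15 counts, so proportions among them were not resolved at this depth.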
